A study of Mus musculus with 10 samples.

Results

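The 7 genes described here set the transmitter identity of a neuron that releases glutamate or GABA, and they were read in single cells of the paraventricular hypothalamus (PVH) of the mouse. They were taken by symbol from a table of 48397 genes: *Slc17a6*, *Slc17a7*, *Slc17a8*, *Slc32a1*, *Gad1*, *Gad2* and *Abat*. All 7 were in the table and were followed across 706 cells, 15 clusters numbered by the authors and 10 plates of 96 wells.

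Cells came from male mice of the Agrp-IRES-Cre line crossed with Ai9, older than 7 weeks, in a single condition, so no treatments or genotypes were compared. Cre under the *Agrp* locus turns on the red protein tdTomato of Ai9 in AGRP neurons. The labels call the picked cells labelled neurons, whereas the methods used the AGRP axons to find the border of the PVH. Slices were held in blockers of neuronal activity with pronase, and single cells were picked by hand, then lysed, reverse transcribed with barcoded primers and amplified as 1 pool per plate (Smart-SCRB). The study names 10 animals without tying them to plates, so the plate was the replicate and p-values measure the spread between plates, which may be technical. Of the 15 clusters, 12 hold PVH neurons (664 cells), and clusters 5, 6 and 11 (42 cells) were set aside by the study as outside the PVH.

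Glutamatergic neurons load glutamate into synaptic vesicles with a vesicular glutamate transporter: Vglut1, Vglut2 and Vglut3 are encoded by *Slc17a7*, *Slc17a6* and *Slc17a8*. GABAergic neurons make GABA from glutamate with glutamic acid decarboxylase, an enzyme encoded by the paired genes *Gad1* and *Gad2*, and load it with the vesicular transporter Vgat, encoded by *Slc32a1*. *Abat* encodes GABA transaminase, the mitochondrial enzyme that breaks GABA down. The PVH is known as a mostly glutamatergic nucleus in which Vglut2 is the main vesicular transporter, surrounded by GABAergic hypothalamic cells.

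On GRCm38 the genes lie apart, with *Gad1*, *Gad2* and *Slc32a1* on chromosome 2 and *Slc17a6* and *Slc17a7* on chromosome 7. In the GENCODE M21 annotation *Gad2* spans chr2:22622205-22693874 (+), *Gad1* chr2:70553072-70602014 (+), *Slc32a1* chr2:158610767-158615748 (+), *Slc17a6* chr7:51622006-51671119 (+), *Slc17a7* chr7:45163949-45176142 (+), *Slc17a8* chr10:89574020-89621253 (-) and *Abat* chr16:8513429-8621568 (+). *Gad1* and *Slc32a1* are overlapped by the antisense genes *Gad1os* and *Gm14205*. Whether the counting used strand is not given in the sources used here, so reads of each gene and its antisense partner could not be told apart.

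The sequence before the transcript start of the genes that the results turn on is shown first, because these genes were seen in different sets of cells. RefSeq windows (GRCm38.p6) were matched for 6 of the 7 genes, in 8 windows, with none for *Abat*. Each line gives the plus strand, 5′ to 3′, and ends at the transcript start of the window or, for *Gad2* and *Gad1*, at the last base before the first annotated exon that lies in the window. The *Gad1* stretch and the second *Slc17a6* window lie inside the annotated span of their genes, before a later start.
Gad2, chr2:22622077-22622204 (+): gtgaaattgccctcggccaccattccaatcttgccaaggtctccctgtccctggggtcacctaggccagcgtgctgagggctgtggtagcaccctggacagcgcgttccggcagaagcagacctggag
Gad1, chr2:70561879-70562041 (+): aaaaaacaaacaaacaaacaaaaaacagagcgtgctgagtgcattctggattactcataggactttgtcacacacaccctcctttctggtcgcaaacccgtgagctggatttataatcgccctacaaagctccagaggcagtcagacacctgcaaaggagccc
Slc32a1, chr2:158610508-158610757 (+): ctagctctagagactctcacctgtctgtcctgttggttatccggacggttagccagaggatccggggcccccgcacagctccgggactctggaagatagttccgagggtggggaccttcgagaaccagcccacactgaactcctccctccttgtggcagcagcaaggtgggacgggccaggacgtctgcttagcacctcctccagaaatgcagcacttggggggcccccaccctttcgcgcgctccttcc
Slc17a6, chr7:51621580-51621829 (+): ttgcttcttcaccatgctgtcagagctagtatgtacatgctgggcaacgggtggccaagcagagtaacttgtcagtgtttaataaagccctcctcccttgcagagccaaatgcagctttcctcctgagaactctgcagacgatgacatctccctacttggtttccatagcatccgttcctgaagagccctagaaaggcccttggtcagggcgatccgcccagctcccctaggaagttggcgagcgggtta
Slc17a6, second start, chr7:51624387-51624636 (+): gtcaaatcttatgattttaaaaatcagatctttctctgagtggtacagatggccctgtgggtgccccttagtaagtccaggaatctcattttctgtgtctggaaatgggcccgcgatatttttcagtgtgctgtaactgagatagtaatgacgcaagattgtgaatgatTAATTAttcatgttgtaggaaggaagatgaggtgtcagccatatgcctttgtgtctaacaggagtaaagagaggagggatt
Capitals mark TAATTA, the core recognised by many homeodomain factors such as the Dlx proteins, searched after the values had been seen. These letters read the same on both strands. They were found once in the second *Slc17a6* window, with the first base 81 bases before the start, once in 1 of the *Slc17a8* windows, and not in the windows of *Gad2*, *Gad1* and *Slc32a1*. Of all 32851 windows of 250 bases, 4.84% held the motif. Motif and base composition were read over the whole window of 250 bases, of which the lines of *Gad2* and *Gad1* show the first 128 and 163. In base composition the whole windows of *Gad2* (64.0% G+C), *Slc32a1* (62.4%) and *Gad1* (58.0%) lay above the median of 52.4% over all windows, as did the first *Slc17a6* window (53.2%), while the second had 41.2%.

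Plates held 43 to 87 of the cells. Total counts of unique molecular identifiers (UMIs) ran from 50646 to 1078101 per cell, with a median of 128671.5. The median per plate was 188176.5 to 283709 on the 4 plates named Q and 69514 to 127829 on the 6 plates named AL or JM, a prefix that the authors' cell table lists as batch. The pan-neuronal gene *Snap25* was detected in 652 of 664 PVH cells, and the PVH factors *Otp* and *Sim1* in 641 and 398. In cluster 6 *Sim1* was detected in 1 of 25 cells, and the summed level of *Sim1*, *Otp* and *Pou3f2* was 0 to 57.6 CPM by plate (UMIs of a gene scaled to the same total in every sum of cells), against 358 to 1491 CPM over the PVH cells. The 6 astrocyte markers summed to at most 13.8 CPM on any plate over the PVH cells, and all 6 were at 0 in clusters 5, 6, 11 and 13.

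*Slc17a6* and *Abat* were detected in most PVH cells and *Gad2* in a minority, while *Slc32a1* was not detected in any of them. Detection means 1 UMI or more, and intervals are exact Clopper-Pearson intervals at 95%, which cover counting error only. *Slc17a6* was detected in 534 of 664 PVH cells (80.4%, 77.2 to 83.4), *Abat* in 524 (78.9%, 75.6 to 82.0) and *Gad2* in 93 (14%, 11.5 to 16.9). By plate the shares were 81.2% ± 6.69 for *Slc17a6*, 79.5% ± 7.78 for *Abat* and 14.5% ± 5.13 for *Gad2* (SD, n = 10). The lowest, median and highest plate had 68.8%, 84.3% and 87.0% of cells with *Slc17a6*, and 6.58%, 14.1% and 23.8% with *Gad2*. *Gad1* and *Slc17a8* were each detected in 4 PVH cells (0.602%) and *Slc17a7* in 1 (0.151%). *Slc32a1* was detected in 0 of 664, which allows a share of up to 0.452% of cells with a UMI. The plot of shares by cluster shows all 7 genes together.

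**Figure D1:**
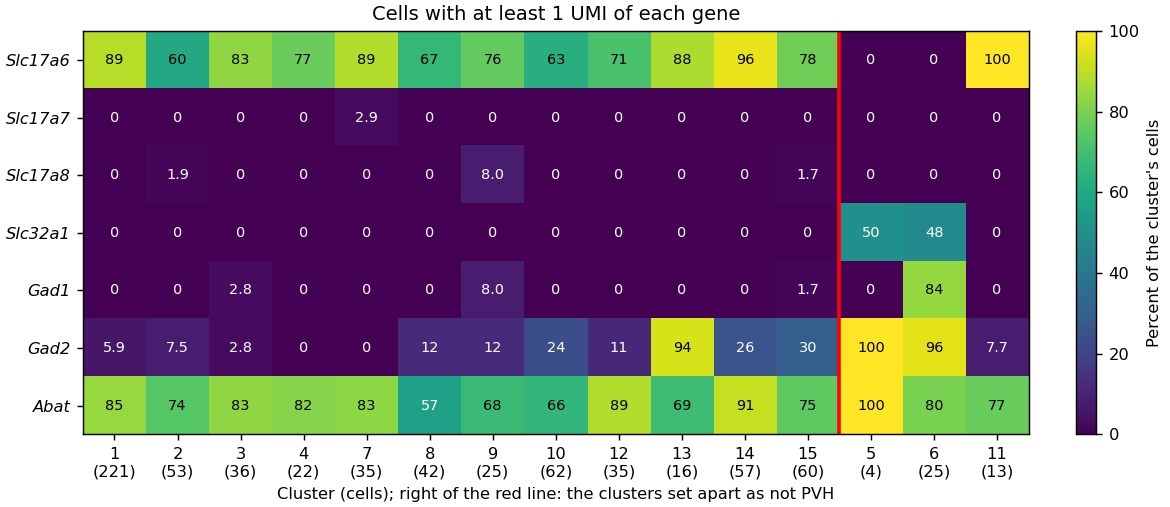
Share of cells (percent, rows are genes, columns are the 15 clusters) in which each of the 7 genes was detected with at least 1 UMI. *Slc17a6* and *Abat* were found in most cells of all PVH clusters, *Gad2* was highest in clusters 5, 6 and 13, and *Slc32a1* was found in clusters 5 and 6.

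*Slc17a6* was the vesicular transporter gene of every PVH cluster. It was detected in 60.4% of the 53 cells of cluster 2 at the lowest and in 96.5% of the 57 cells of cluster 14 at the highest. Mean CPM over plates ranked the PVH clusters 14, 15, 13, 12, 7, 3, 4, 1, 10, 9, 8 and 2, from 291 ± 141 CPM (SD, n = 8) in cluster 14 to 62.5 ± 28.8 CPM (n = 5) in cluster 2. Between neighbours in that order the difference was smaller than the larger SD of the pair, so neighbours could not be told apart by this measure. In cluster 15, next to the highest, plates spread from 7.06 to 480 CPM. In cluster 1, the largest with 221 cells, 197 cells had *Slc17a6* (89.1%, 84.3 to 92.9), at 131 ± 39.2 CPM (n = 10). The highest level lay outside the PVH clusters. In cluster 11, all 13 cells had *Slc17a6*. Its level was 1008 and 1078 CPM on the 2 plates with at least 3 cells of the cluster, above the highest plate of cluster 14 (497 CPM). None of these 13 cells had *Sim1*. No cell of clusters 5 and 6 had *Slc17a6* (0 of 29, which allows up to 10.3%).

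The other vesicular glutamate transporter genes were rare. *Slc17a7*, the Vglut1 gene, was seen as 1 UMI in 1 cell of cluster 7, which also had 17 UMIs of *Slc17a6*. *Slc17a8*, the Vglut3 gene, was seen with 9, 4, 1 and 1 UMIs in 4 cells. The pair with the higher counts was in cluster 9, and of these the cell with 9 UMIs had no *Slc17a6* and no *Gad2*, whereas the cell with 4 UMIs also had 5 UMIs of *Slc17a6* and 21 of *Gad1*. Neither gene had enough counts to be tested in any cluster.

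Among the genes for making GABA, *Gad2* was the one present in PVH cells, and by cluster its mean level ran from 0 to 411 CPM among them. Cluster 13 stood first among the PVH clusters, with *Gad2* in 15 of 16 cells (93.8%, 69.8 to 99.8). Its 3 plates with at least 3 cells gave 254 (AL5), 343 (AL6) and 637 (JM6) CPM, and all 16 cells lay on AL and JM plates. Clusters 15, 14 and 10 came next, with *Gad2* in 18 of 60, 15 of 57 and 15 of 62 cells. Their plates ran from 0 to 660 CPM in cluster 15 (165 ± 217, n = 8), 0 to 279 CPM in cluster 14 (51.9 ± 94.7, n = 8) and 0 to 190 CPM in cluster 10 (80.6 ± 82.8, n = 7), so within each of these clusters some plates had no *Gad2* UMI. In cluster 10 the plates were Q5 at 190, Q6 at 173, Q7 at 130, Q8 at 59.4, AL5 at 11.6, and JM6 and JM8 at 0 CPM, so that each Q plate was above each other plate, and 14 of the 15 cells with *Gad2* came from Q plates. In the remaining PVH clusters at most 12% of cells had *Gad2*, namely 13 of 221 cells of cluster 1, 5 of 42 of cluster 8, 4 of 53 of cluster 2, 4 of 35 of cluster 12, 3 of 25 of cluster 9 and 1 of 36 of cluster 3. Clusters 4 and 7 had none in 22 and 35 cells, which allows up to 13.6% and 8.57%.

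Outside the PVH clusters *Gad2* was found in all 4 cells of cluster 5, at 381, 397, 883 and 933 CPM, and in 24 of 25 cells of cluster 6. The plates of cluster 6 held 781 (Q5), 650 (Q6), 599 (Q7), 1479 (JM6) and 776 (JM8) CPM, with a mean of 857 ± 357 (SD, n = 5). The lowest of these, 599 CPM, was below the highest plate of cluster 13, so the plates of the 2 clusters overlapped. Cluster 11 had *Gad2* in 1 of 13 cells.

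**Figure D2:**
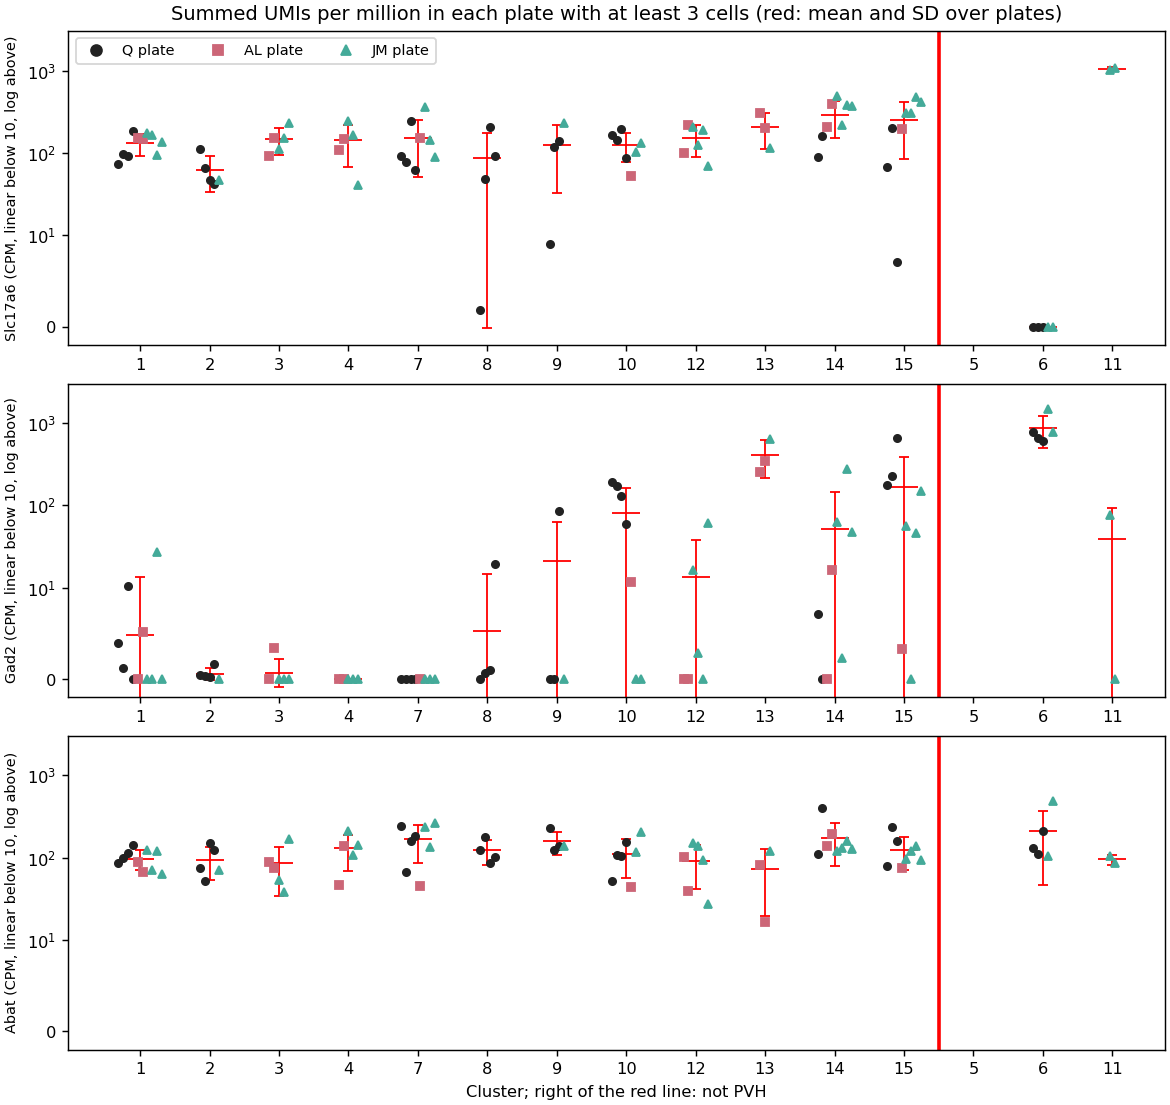
CPM of *Slc17a6*, *Gad2* and *Abat* by cluster, where each point is a plate with at least 3 cells of the cluster and the bar is the mean over plates. *Gad2* lay between 254 and 1479 CPM on the plates of clusters 6 and 13 and at 0 on every plate of clusters 4 and 7.

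*Gad1* and *Slc32a1* went with cluster 6. *Gad1* was detected in 21 of its 25 cells (84.0%, 63.9 to 95.5), with plates at 170 (Q5), 28.8 (Q6), 252 (Q7), 131 (JM6) and 819 (JM8) CPM. The plate JM8 was the highest and Q6 the lowest. *Slc32a1* was detected in 12 of the 25 cells (48.0%, 27.8 to 68.7), with plates at 44.2 (Q5), 2.88 (Q6), 12.9 (Q7), 13.1 (JM6) and 23.9 (JM8) CPM. On these 5 plates cluster 6 held 65 *Slc32a1* UMIs and the PVH cells held none in 79581518 UMIs, which is at least 494-fold higher against a floor of 3 counts over the group. In cluster 5, *Slc32a1* was seen in 2 of 4 cells (1 and 3 UMIs) and *Gad1* in none. In PVH cells *Gad1* reached more than 1 UMI in 2 cells, both of cluster 9: the cell with *Slc17a8* described above, and a cell of 476115 UMIs in all with 16 UMIs of *Gad1*, 16 of *Slc17a6* and 130 of *Gad2*. Single UMIs of *Gad1* were found in a cell of cluster 15 and a cell of cluster 3.

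*Abat*, the gene for GABA breakdown, was spread over all clusters. Its mean ran from 72.6 ± 52.8 CPM (n = 3) in cluster 13 to 209 ± 163 CPM (n = 5) in cluster 6, and neighbours in the order of clusters differed by less than the larger SD. The share of cells was 57.1% in cluster 8 at the lowest and 91.2% in cluster 14 at the highest among the PVH clusters, 80% in cluster 6, and all 4 cells in cluster 5. The cluster with the highest share of *Gad2* cells in the PVH, cluster 13, therefore had the lowest mean *Abat* level, although its plates from 16.3 to 121 CPM overlapped those of cluster 6 (105 to 489 CPM).

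Co-detection was then counted cell by cell. *Gad2* and *Slc17a6* were found together in 71 of 664 PVH cells (10.7%, 8.45 to 13.3), which was 76.3% (66.4 to 84.5) of the cells with *Gad2* and 13.3% of the cells with *Slc17a6*. A further 463 cells (69.7%) had *Slc17a6* without *Gad2*, 22 (3.31%) had *Gad2* without *Slc17a6*, and 108 (16.3%) had neither. The cells with both came from 10 of the 12 PVH clusters: 14 from cluster 14, 13 each from clusters 13 and 15, 9 from cluster 1, 8 from cluster 10, 4 each from clusters 8 and 12, 3 from cluster 9, 2 from cluster 2 and 1 from cluster 3. Only in cluster 13 were they the larger part of the cells, with 13 of 16 (81.2%, 54.4 to 96.0). By plate the share of PVH cells with both ran from 5.26% (AL5) to 19.0% (JM7).

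**Figure D3:**
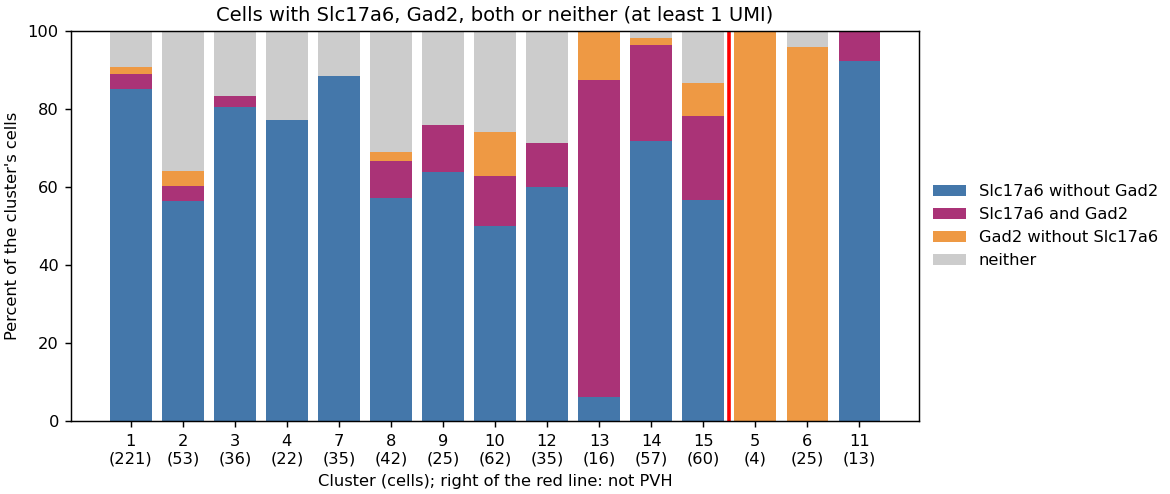
Share of cells in each cluster (percent) with *Slc17a6* only, *Gad2* only, both or neither, at 1 UMI or more. Cells with both genes make up 81.2% of cluster 13, and clusters 5 and 6 hold no cell with *Slc17a6*.

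Counts of *Gad2* in these cells were mostly not single UMIs. Of the 93 PVH cells with *Gad2*, 62 had 10 or more UMIs and 50 of these also had *Slc17a6* (80.6%, 68.6 to 89.6). Of 23 cells with 1 or 2 UMIs, 16 had *Slc17a6*, and of 8 with 3 to 9 UMIs, 5 did. At 10 or more UMIs of each gene, 35 PVH cells remained. How many UMIs were counted per captured molecule was not measured here, so several UMIs need not stand for several molecules. In the cells with both, the median *Gad2* level in clusters 13, 15, 10 and 14 was 437, 392, 257 and 118 CPM, and the median *Slc17a6* level was 239, 193, 92.5 and 305 CPM. Cluster 14 thus had the lowest *Gad2* and the highest *Slc17a6* of the 4. Cells were picked by hand and no doublet caller was run. Pooled over the PVH clusters, cells with both had a median of 108862 UMIs in all, against 136120 in the cells with *Slc17a6* alone. Within clusters 1, 2, 3, 8, 9, 10, 12 and 15 the cells with both had the higher median. It was 229429 against 183818 in cluster 1 and 187904 against 106703 in cluster 10. The median was lower in cluster 14 (81724.5 against 119705) and in cluster 13 (79442 against 128770 in 1 cell). The part of depth in the co-detection was not tested.

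**Figure D4:**
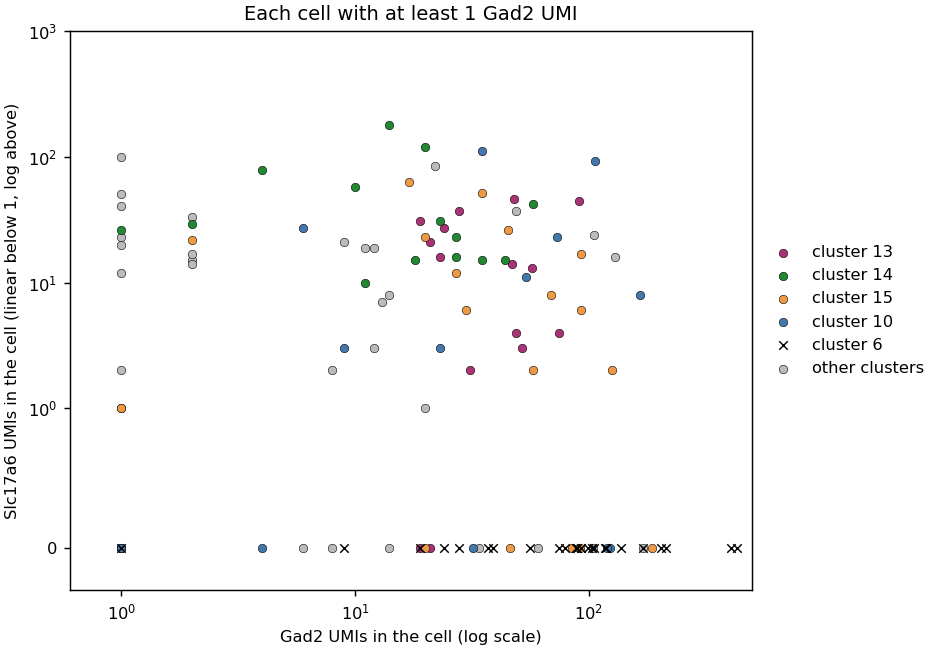
UMIs of *Gad2* against UMIs of *Slc17a6* in single cells with *Gad2* (log axes, with 0 drawn apart), coloured by cluster. Of the 93 PVH cells, 71 have both genes, and all 28 cells of clusters 5 and 6 lie at 0 UMIs of *Slc17a6*.

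*Gad2* and *Slc32a1* were found together in 0 of 664 PVH cells, which allows up to 0.452%, although 62 of these cells had 10 or more UMIs of *Gad2*. In cluster 6 they were together in 12 of 25 cells (48.0%, 27.8 to 68.7), which were all the cells with *Slc32a1*. *Gad1* with *Gad2* was found in 20 of 25 cells of cluster 6 and 2 of 664 PVH cells. In cluster 5, 2 of 4 cells had *Gad2* with *Slc32a1*. No cell of the 706 had *Slc17a6* with *Slc32a1*.

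Whether PVH cells with *Gad2* held *Slc17a6* less often was compared within plates, without using the borders between the PVH clusters. The choice of PVH cells itself used the cluster labels. It left out 28 cells of clusters 5 and 6 with *Gad2* and no *Slc17a6*, and 1 cell of cluster 11 with both, so the result holds within the PVH clusters only. *Slc17a6* was detected in 78.2% ± 14.3 of cells with *Gad2* and 81.9% ± 6.97 of cells without it, a difference of -3.68 points (SD 13.8, n = 10 plates; 3 plates higher and 7 lower). An exact two-sided sign-flip permutation test over plates gave p = 0.420, adjusted p = 0.50 over 4 genes (Benjamini-Hochberg), where the smallest p possible was 0.00195. The same test gave an adjusted p of 0.50 for *Abat* (-2.06 points, SD 8.06; 2 plates higher, 8 lower), *Gad1* (1.32 points) and *Slc17a8* (-0.670 points). The *Slc17a6* difference was -12.2 ± 11.8 points on the 4 Q plates and 1.99 ± 12.7 on the other 6, and the exact permutation test between these sets gave p = 0.143. Within plate and cluster, 71 cells with both genes were seen and 73.7 expected if detection of each was independent, a mean difference of -0.355% of cells (SD 1.45, n = 10; 4 plates higher, 6 lower; exact sign-flip permutation p = 0.484). The differences over all 10 plates for *Slc17a6* and *Abat* and the difference within plate and cluster were smaller than their SD over plates, whereas the *Slc17a6* difference on the Q plates was about as large as its SD.

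The share of cells with a gene moved with the plate name. *Slc17a6* was detected in 75.2% ± 7.33 of PVH cells on the 4 Q plates and 85.2% ± 1.01 on the other 6, and the plates did not overlap. The difference of -9.94 points had an exact two-sided permutation p of 0.00952, the smallest that 4 plates against 6 allow when the smaller tail is doubled (adjusted p = 0.0667 over 7 genes). Counting permutations by the absolute difference instead gave an adjusted p of 0.0333, so the call depends on the definition of the exact test. With each cell thinned to 63046 UMIs, which left out 71 shallower cells, the shares were 64.7% ± 6.52 and 88.0% ± 3.23 (-23.3 points, exact permutation, adjusted p = 0.0333). *Slc17a6* levels were 99.8 ± 18.8 CPM on the Q plates and 204 ± 48.6 CPM on the others, again without overlap. Within cluster 1 alone the shares were 87.6% and 91.7% (exact permutation p = 0.305) and the levels 111 ± 49.4 and 144 ± 28.2 CPM. With the cells of cluster 1 also thinned, the shares were 78.0% ± 7.63 and 91.2% ± 7.73, a difference of -13.2 points (exact permutation p = 0.0381, adjusted p = 0.267 over 7 genes). *Gad2* was detected in 15.1% ± 4.69 and 14% ± 5.80 of cells (adjusted p = 1.00, exact permutation). *Abat* differed by -8.44 points (adjusted p = 0.289) and, thinned, by -17.8 points (adjusted p = 0.0333, both exact permutation). Depth, batch and the mix of clusters differed together between these plates, and their parts cannot be told apart.

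PVH cells were also set against the non-PVH cells of the same plate on 9 plates. Both sides are clusters that the study made from these same cells. The paper describes its PVH clusters as containing *Slc17a6* and lacking *Slc32a1*. These p-values therefore give size against the spread over plates and are not independent evidence. The non-PVH side mixes clusters 5 and 6, with *Slc17a6* in 0 of 29 cells, and cluster 11, with it in all 13. It held 1 cell each on AL5 and JM7 and 2 each on Q8 and JM5, and on JM5 and JM7 only cluster 11 cells. *Slc17a6* was detected in 80.6% of PVH cells and 34.9% of this mixture, as means over plates, 45.6 points higher (SD 38.4; higher on 7 of 9 plates; exact sign-flip permutation, adjusted p = 0.0456 over 7 genes). *Gad1* was 51.2 points lower (SD 38.4; lower on 7 plates) and *Gad2* 50.0 points lower (SD 43.7; lower on 7 plates), each with an adjusted p of 0.0456 by the same exact permutation test. *Slc32a1* was 27.8 points lower (SD 31.9, adjusted p = 0.0547) and *Abat* 18.9 points higher (SD 43.6, adjusted p = 0.310, exact permutation). The calls were lost with a detection minimum of 3 UMIs (adjusted p = 0.0638 for *Slc17a6* and 0.0547 for both decarboxylase genes) and when any of the plates Q5, Q6, Q7, Q8, AL5, JM6 or JM8 was left out (adjusted p of 0.0684 to 0.0911).

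The levels were then tested cluster by cluster on UMIs summed per plate, each cluster against the other PVH cells of the same plates, with edgeR's quasi-likelihood test and Benjamini-Hochberg adjustment over all genes. Sums needed 3 cells and a cluster 3 plates, which left 13 clusters without 5 and 11. The authors made the clusters from these cells with all genes, so the p-values give the size of a difference against the spread over plates and are not independent evidence. Of 40 tests of the 7 genes, 9 passed an adjusted p of 0.05, of which 6 were *Gad2*, 2 *Slc17a6* and 1 *Gad1*. *Gad1* passed the filter on low counts in cluster 6 alone, through the cells where it was high (689 UMIs there against 38 in the PVH cells of the same plates), so a difference was built into its selection and its call is no support. The *Gad2* call in cluster 13 (342 UMIs against 39) has the same limit. Members passed in cluster 6 (3 of 4 tested, where 4.05% of all genes passed). In each of clusters 1, 2, 3, 7, 13 and 14 the number was 1 of 3, where 11.9%, 1.26%, 2.95%, 6.08%, 1.40% and 5.40% of all genes passed. In clusters 4, 8, 9, 10, 12 and 15, where 0.670%, 0.0734%, 1.25%, 4.46%, 1.92% and 1.88% of genes passed, 0 of 18 tests passed edgeR, 5 had an unadjusted p under 0.05 and 4 passed DESeq2. Those 4 were *Gad2*, lower in clusters 4, 8, 9 and 12.

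*Gad2* was higher in cluster 13 than in the other PVH cells, at 411 ± 200 against 2.24 ± 2.74 CPM (log2 fold change 7.61 ± 0.62 SE, edgeR quasi-likelihood adjusted p = 2.99e-08, higher on 3 of 3 plates). On these 3 plates (AL5, AL6 and JM6) the cluster held 342 *Gad2* UMIs and the other PVH cells 39. The plates JM5, JM7 and JM8, with 2 cells of the cluster each, were left out. There cluster 13 had 893, 660 and 131 CPM, and all PVH cells, cluster 13 included, had 56.0, 82.1 and 41.1 CPM. The fold change therefore holds for the tested plates only. The gene passed the filter on low counts through cluster 13, so these values are to be read as a description. In cluster 6 it was higher by 4.63 ± 0.27 on the log2 scale (857 ± 357 against 30.1 ± 11.2 CPM, adjusted p = 4.28e-17, 5 of 5 plates). In cluster 1 it was lower (log2 fold change -4.32 ± 0.66; 4.77 ± 8.52 against 50.5 ± 23.7 CPM, adjusted p = 0.000264, lower on 10 of 10 plates), where 6.30% of all genes passed as lower. Clusters 2 (-5.62 ± 1.09, adjusted p = 0.0231) and 3 (-6.44 ± 1.22, adjusted p = 0.0111) were also lower, each on 5 of 5 plates, where 0.793% and 1.91% of genes passed as lower. In cluster 7 no *Gad2* UMI was counted, at least 53.2-fold lower than the other cells (3 counts over the group; adjusted p = 0.00345, 8 of 8 plates; 4.97% of genes lower). Cluster 4 also had no UMI, at least 20.6-fold lower, and did not pass (adjusted p = 0.0650, edgeR quasi-likelihood); it passed without the plate block (adjusted p = 0.0221). The calls in clusters 2, 3 and 7 depended on few plates. The call in cluster 2 was lost when any of its 5 plates was left out (adjusted p of 0.0685 to 0.149 without Q5, Q6, Q7, Q8 or JM8), that in cluster 3 without AL5 (0.0547) or JM7 (0.103), and that in cluster 7 without the Q plates (0.0612).

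*Slc17a6* passed in 2 clusters. In cluster 6 none was counted, against 142 ± 67.9 CPM in the PVH cells of its plates, at least 137-fold lower (adjusted p = 1.14e-06, edgeR quasi-likelihood, 5 of 5 plates). In cluster 14 it was higher, at 291 ± 141 against 162 ± 51.1 CPM, a log2 fold change of 0.62 ± 0.16 SE where the median of all genes was -0.39 (adjusted p = 0.0310, 8 of 8 plates). That call was lost without the plate block (0.74, adjusted p = 0.171), without the filter on low counts (0.54, adjusted p = 0.0972) and when AL6, JM5, JM6, JM7 or JM8 was left out (adjusted p of 0.111, 0.0975, 0.0508, 0.0886 and 0.0877). *Gad1* was higher in cluster 6 by 9.22 ± 1.62 on the log2 scale (280 ± 312 against 0.354 ± 0.489 CPM, adjusted p = 0.0306, 5 of 5 plates), a value to be read as a description. The call was lost with DESeq2's size factors in edgeR (0.0641) and without Q5, Q7 or JM6 (0.188, 0.106 and 0.139). *Abat* passed in 0 of 13 clusters by edgeR and by DESeq2, with an unadjusted p under 0.05 in 1.

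**Figure D5:**
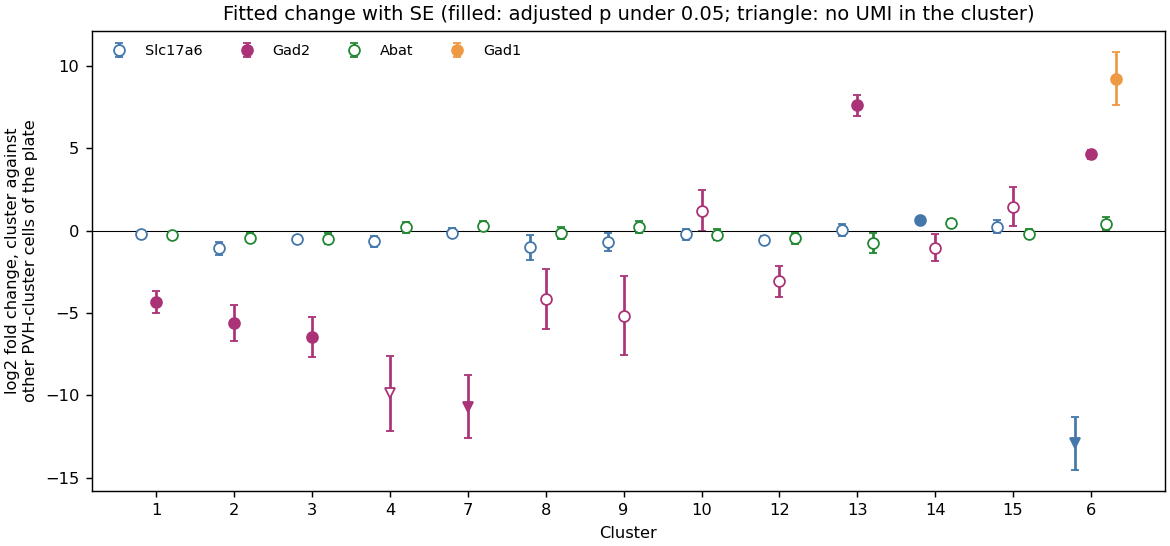
Log2 fold change of *Slc17a6*, *Gad2*, *Abat* and, in cluster 6, *Gad1* in each tested cluster against the other PVH cells of its plates, with bars of 1 SE from edgeR and filled symbols for an adjusted p under 0.05. *Gad2* rose in clusters 6 and 13 and *Abat* passed in no cluster, while values of genes with no UMI in the cluster depend on the prior count.

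Genes around the 7 were read from 6 lists (the supply and uptake of glutamate, the uptake and breakdown of GABA, ionotropic glutamate receptors, GABA receptors, forebrain GABA lineage factors, and markers of other transmitters) in clusters 6, 8, 13 and 14. In cluster 6, 0.276% of all genes passed as higher and 3.77% as lower. Of the lineage factors 3 were tested and all 3 were higher, including *Dlx1* (217 ± 104 CPM, 11.5 ± 0.88, adjusted p = 7.68e-13) and *Dlx5* (76.4 ± 50.1 CPM, with no UMI in the PVH cells of the 5 plates, adjusted p = 9.57e-05), homeodomain factors of GABAergic forebrain neurons. *Dlx1* had 864 UMIs in the cluster and 4 in the PVH cells, and *Dlx5* 258 and 0, so both passed the filter on low counts through cluster 6 and the count is a description. The other 11 of the 14 listed factors had too few counts to be tested. Of 3 tested markers of other transmitters, 2 were higher: *Slc18a2*, the vesicular monoamine transporter (6.99 ± 1.52, adjusted p = 0.00709), and *Ddc*, the decarboxylase that makes dopamine and serotonin (2.5 ± 0.70, adjusted p = 0.0298, edgeR quasi-likelihood throughout). Of 16 ionotropic glutamate receptor genes 1 was higher, the kainate receptor gene *Grik3* (8.90 ± 1.92, adjusted p = 0.00613), at a list median of -0.26. *Grik3* had 162 UMIs in the cluster and 6 in the PVH cells, and *Slc18a2* had 257 and 88. Both genes passed the filter on low counts through cluster 6, so their values are descriptions too. Of 14 GABA receptor genes 2 were lower, among them *Gabrb2* (no UMI in the cluster, 7.74 ± 2.12 CPM in the others, adjusted p = 0.0298), at a list median of -0.33. DESeq2 passed 0 of these 14. Of 13 genes for glutamate supply and uptake 1 was lower, the neutral amino acid transporter gene *Slc1a4* (-5.98 ± 1.56, adjusted p = 0.0298), and of 5 genes for GABA uptake and breakdown 0 passed either tool or an unadjusted p of 0.05.

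In PVH clusters 13 and 14, 4 of the 7 list genes that passed were GABA receptor subunits, and all 4 were lower. In cluster 13, where 0.262% of genes were higher and 1.13% lower, 2 of 13 tested GABA receptor genes were lower, each on 3 of 3 plates, among them *Gabrb1* (57.5 ± 30.8 against 191 ± 34.8 CPM, -2.06 ± 0.46, adjusted p = 0.00455). The list median was -1.66, against -0.54 over all genes, and DESeq2 passed 1. None of the 13 genes for glutamate supply, 5 for GABA uptake, 14 ionotropic receptor genes or 2 markers of other transmitters passed edgeR or DESeq2 in cluster 13 (0, 0, 2 and 1 at an unadjusted p under 0.05). In cluster 14, where 1.42% of genes were higher and 3.98% lower, 1 of 5 tested genes for GABA uptake and breakdown was higher (list median -0.14, all genes -0.39). *Got1*, the aspartate aminotransferase that forms glutamate, was the 1 of 13 supply genes that was higher (0.58 ± 0.13, adjusted p = 0.0165). Of 14 GABA receptor genes 2 were lower, among them *Gabra5* (-3.75 ± 1.03, adjusted p = 0.0418), and of 2 markers of other transmitters *Th*, the gene of tyrosine hydroxylase, was lower (-2.35 ± 0.57, adjusted p = 0.0224). Of 15 ionotropic receptor genes 0 passed edgeR, 5 had an unadjusted p under 0.05 and 3 passed DESeq2. In cluster 8, of 52 tested list genes 0 passed edgeR, 7 had an unadjusted p under 0.05 and 1 passed DESeq2.

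The genes whose pattern over the 15 clusters was most like each of these were ranked by Pearson's r of log2(mean CPM + 1), a description over clusters that share plates and depth. For *Slc17a6* they were *Ube2o* (r = 0.945), *Nrn1* (0.909) and *Iqck* (0.908). For *Slc32a1* they were *Six6* (0.994), *Dlx1* (0.971) and *Tex26* (0.904), and for *Gad1* *Gm6905* (0.950), *Lhx1os* (0.940) and *Gm16585* (0.936). For *Gad2* the values were lower, at 0.882 for *Sgtb*, 0.865 for *Lancl3* and 0.851 for *Adgrb1*, as they were for *Abat*, at 0.827 for *Mknk1*, 0.808 for *Cacna1d* and 0.782 for *Fip1l1*. Among the 7 genes, *Slc32a1* had r = 0.811 with *Gad1*, 0.603 with *Gad2* and -0.908 with *Slc17a6*. *Slc32a1* was at 0 in all clusters except 5 and 6, so each r with it sets these clusters against the rest. In cluster 5, *Gad2* was detected in all 4 cells and *Gad1* in none.

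Wells without a kept cell gave the background. In the 40 control wells that the authors' subtraction used (0 to 791 UMIs in all), 2 wells had 1 UMI of *Slc17a6* each and the other 6 genes had none. In 40 further wells of the control columns, whose content is not stated, *Abat* was seen in 2 wells and the other 6 genes in 0 of 40, which allows up to 7.50%. Subtracting the control wells changed none of the calls above.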

How the data were processed

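Single-cell RNA sequencing (Smart-SCRB) was read from 10 plates, labelled Q5 to Q8, AL5, AL6 and JM5 to JM8. The authors deposited raw UMI counts per gene and well for 960 wells, with the cluster, the batch (the prefix of the plate name) and the totals of each of the 706 cells that passed their quality control. The submitters' processing notes name Trimmomatic 0.36, STAR 2.5.3a and GRCm38.p5. Which counter, gene models and UMI correction were applied is not given in the sources used here. The authors' totals were matched in 706 of 706 cells after the mean plus 2 SD of 4 control wells per plate was subtracted from each gene. The deposited counts were used here without that subtraction, which was an alternative. The spike-in counts and the list of barcodes were not used.

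The members and the lists of genes were chosen with earlier results of these data known. Levels are CPM of UMIs summed over the cells of a plate and cluster (at least 3 cells), given as mean ± SD over plates. Shares have exact Clopper-Pearson intervals at 95%, and a count of 0 allows 3 counts. Depth was 50646 to 1078101 UMIs per cell, which sets the precision of each share.

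Clusters were tested with edgeR 4.0.16 in R 4.3.3 (TMM, filterByExpr, quasi-likelihood F test, plate as block, Benjamini-Hochberg over all genes). The 2 sums of a plate came from the same pooled amplification, which is where the pairing comes from. The methods name DESeq2 with no design, and DESeq2 1.42.0 was an alternative. Shares were compared with exact two-sided permutation tests over plates, by sign flips or, for plate prefixes, over all choices of 4 of 10 plates with the smaller tail doubled (Python 3.11.15, numpy 2.4.6, pandas 2.3.3, scipy 1.17.1, figures with matplotlib 3.10.9). Other alternatives were detection at 3 UMIs, thinning to 63046 UMIs, pooled cells, RLE size factors, no filter, no block, sums of 5 cells, a comparison without cluster 1, batches alone and each plate left out. The absolute-difference test and cluster 1 thinned were added after the values were seen. Scripts were tested on simulated counts.

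Genes were named by rule: the 7 members, the 3 genes most like each member found in at least 10 cells (among genes found in at least 20), list genes past the threshold in clusters 6, 8, 13 or 14 (at most 4 per list and direction), and *Sim1*, *Snap25*, *Aqp4* and *Oxt* as checks. The values of some genes of these lists are not reported here.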

Additional observations from a re-analysis of the deposited data

Results flagged for a closer look

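Dixon's test was used to look for a plate far from the others in 36 groups of 4 to 10 plates. Its chance rate of about 1 in 20 holds for normally distributed values. Several *Gad2* groups held plates at 0 CPM, so that rate does not apply here and the flags are a description. In 9 of the 36 groups the highest plate stood apart from the others. For *Gad2* these were the plate JM7 in cluster 1 at 27.0 CPM (other plates 0 to 10.3), JM6 in cluster 6 at 1479 CPM (599 to 781), Q8 in cluster 8 at 19.4 CPM (0 to 1.03), JM8 in cluster 12 at 61.1 CPM (0 to 16.1), JM7 in cluster 14 at 279 CPM (0 to 62.6) and Q8 in cluster 15 at 660 CPM (0 to 226). In cluster 15 the plate Q8 held 3 cells, of which 1 had all 187 UMIs of *Gad2*. In cluster 14 the plate JM7 held 7 cells, of which 5 had *Gad2*. For *Abat* they were JM8 in cluster 6 at 489 CPM (105 to 211), Q5 in cluster 9 at 228 CPM (124 to 138) and Q7 in cluster 14 at 394 CPM (112 to 192). No group of *Slc17a6* plates stood apart in this way.

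The genes were also found in wells that the authors did not keep as cells. Of 174 such wells outside the control columns, with 0 to 50113 UMIs, *Slc17a6* was detected in 72 (41.4%), *Abat* in 64 (36.8%) and *Gad2* in 35 (20.1%, 30 of them with 3 or more UMIs), all above the control wells. *Gad1* was detected in 11 and *Slc32a1* in 5. *Gad2* was present in 10 of the 11 wells with *Gad1* and in 5 of the 5 with *Slc32a1*, and 19 of the 35 wells with *Gad2* had *Slc17a6*. *Slc17a6* was in 0 of the 5 wells with *Slc32a1*.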

How the results depend on the processing

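No called value changed direction under any alternative run. With a minimum of 3 UMIs, *Slc17a6* was detected in 73.3% and *Abat* in 69.3% of PVH cells, and *Gad2* with *Slc17a6* in 50 cells (7.53%). After thinning, the latter share was 7.67% (46 of 600). Thinning also brought the plate-name differences of *Slc17a6* (-23.3 points) and *Abat* (-17.8 points) past the threshold, as did the absolute-difference form of the exact test for *Slc17a6* (-9.94 points).

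The differences between PVH and non-PVH cells lost their calls under most alternatives. For *Slc17a6*, *Gad1* and *Gad2* in turn they were 37.1, -48.1 and -51.4 points with 3 UMIs, 41.3, -42.7 and -52.6 thinned, 71.7, -74.4 and -77.1 on the Q plates, 24.8, -32.7 and -28.3 on the AL and JM plates, and 57.4, -52.5 and -61.3 with 5 cells on each side. Leaving out each plate gave 40.8 to 53.2, -57.6 to -45.1 and -59.2 to -44.6 points. With 4 or 5 plates this exact test cannot reach 0.05.

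Of the 40 cluster tests 9 passed, and 13 by DESeq2, 8 with RLE factors, 10 of 76 without the filter, 6 of 35 with sums of 5 cells, 9 after subtracting control wells, 8 without cluster 1, 4 of 27 on the AL and JM plates and 7 to 9 without each plate. Without the replicate block 9 passed: *Gad2* in cluster 4 was gained (-9.80, adjusted p = 0.0221, edgeR quasi-likelihood) and *Slc17a6* in cluster 14 lost (0.74, adjusted p = 0.171). The block changed no other call. Without cluster 1 among the compared cells, *Gad1* in cluster 6 (adjusted p = 0.0732) and *Slc17a6* in cluster 14 (0.0705) were lost and *Gad2* in cluster 4 gained (0.0252). Sums of 5 cells lost *Gad2* in clusters 2 (0.0836) and 7 (0.194). The value for *Gad2* in cluster 10, not called, ran from -3.94 to 1.97 over the alternatives. RLE factors moved the median of all genes by 0.01 to 0.19 on the log2 scale. The cause of these changes was not tested. Clusters of few cells (4 to 25 in clusters 4, 5, 6, 9, 11 and 13) limit the shares given for them.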
